A study of Mus musculus with 6 samples.

Results

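The guanylate-binding proteins (Gbp) are a family of large GTPases that interferons induce. The 10 family members examined were Gbp2, Gbp2b, Gbp3, Gbp4, Gbp5, Gbp6, Gbp7, Gbp8, Gbp9 and Gbp10, taken as the rows of the deposited count table that carry these symbols, out of 19390 gene rows in all. Of these, 9 had enough counts to enter the test, among 12810 genes tested. The RNA came from splenic γδ T cells, the T lymphocytes that carry γ and δ receptor chains, of mice 6 weeks old, isolated by flow sorting. The library titles give only KO or WT. The 3 KO-labelled libraries were taken to come from USF3-f/f; CD2-cre mice, in which CD2 regulatory sequences express Cre recombinase across the lymphoid lineage, B cells included. The 3 WT-labelled libraries were taken to come from USF3-f/f mice, so the floxed Usf3 alleles are common to both groups and the Cre transgene is in KO-labelled mice alone. The sources used here do not say whether each library came from a separate animal, and p-values then measure only the spread between libraries, which may be technical.

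In mice, interferon-γ acts through its receptor, the kinases Jak1 and Jak2 and transcription factors that include Irf1, which induce Gbp genes. The proteins then assemble on the membranes of microbes and of the vacuoles that hold them, together with the immunity-related GTPases and proteins of the autophagy conjugation system, and they promote inflammasome responses. Lymphocytes also express the genes and raise them when interferon reaches them. In the GRCm38 gene order, 5 members lie in tandem on chromosome 3, in the order Gbp5, Gbp7, Gbp3, Gbp2b and Gbp2, and 5 on chromosome 5, in the order Gbp8, Gbp9, Gbp4, Gbp10 and Gbp6.

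Promoter windows, 250 bases before to 50 bases after a gene's start, were at hand from RefSeq (build GRCm38.p6) for the 5 members on chromosome 3. They are shown because all 5 of these genes hold the core of the interferon-stimulated response element (ISRE), the repeat bound by interferon regulatory factors such as Irf1 and Irf9. The core was searched as GAAA, any 2 bases and GAAA again, on both strands (TTTC in place of GAAA on the other), and its matches are in capitals. All windows are on the plus strand, namely chr3:142620413-142620712 for Gbp2, chr3:142594597-142594896 for Gbp2b, chr3:142559794-142560093 for the upstream start of Gbp3, chr3:142496684-142496983 for Gbp5 and chr3:142530086-142530385 for Gbp7.
Gbp2: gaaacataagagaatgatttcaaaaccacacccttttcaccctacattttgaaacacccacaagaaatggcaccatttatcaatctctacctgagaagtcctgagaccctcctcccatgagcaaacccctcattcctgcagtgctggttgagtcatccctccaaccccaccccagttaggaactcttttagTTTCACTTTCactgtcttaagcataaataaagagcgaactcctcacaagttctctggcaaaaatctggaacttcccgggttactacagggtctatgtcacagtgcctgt
Gbp2b: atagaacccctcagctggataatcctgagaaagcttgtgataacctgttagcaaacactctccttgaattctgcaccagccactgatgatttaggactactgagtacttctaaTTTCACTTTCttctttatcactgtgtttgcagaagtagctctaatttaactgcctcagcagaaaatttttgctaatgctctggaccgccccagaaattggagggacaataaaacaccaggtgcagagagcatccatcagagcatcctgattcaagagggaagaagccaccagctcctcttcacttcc
Gbp3: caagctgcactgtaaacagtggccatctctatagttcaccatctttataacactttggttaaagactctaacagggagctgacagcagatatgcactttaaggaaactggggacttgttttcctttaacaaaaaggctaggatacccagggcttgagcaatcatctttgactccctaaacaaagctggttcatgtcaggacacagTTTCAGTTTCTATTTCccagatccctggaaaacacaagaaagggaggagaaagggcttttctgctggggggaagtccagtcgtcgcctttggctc
Gbp5: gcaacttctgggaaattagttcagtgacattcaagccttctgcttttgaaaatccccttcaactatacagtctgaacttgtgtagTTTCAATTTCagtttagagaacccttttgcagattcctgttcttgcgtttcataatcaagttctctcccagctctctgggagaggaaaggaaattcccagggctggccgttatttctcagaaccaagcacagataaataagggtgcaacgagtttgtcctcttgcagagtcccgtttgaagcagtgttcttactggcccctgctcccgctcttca
Gbp7: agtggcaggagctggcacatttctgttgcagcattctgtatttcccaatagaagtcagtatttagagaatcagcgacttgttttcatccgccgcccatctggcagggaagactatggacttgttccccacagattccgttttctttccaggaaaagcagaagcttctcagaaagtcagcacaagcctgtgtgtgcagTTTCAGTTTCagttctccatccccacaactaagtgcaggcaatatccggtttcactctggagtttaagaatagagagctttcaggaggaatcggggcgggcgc

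The first base of the match lay 59 bases before the start in Gbp2, 53 in Gbp7, 45 in Gbp3, 165 in Gbp5 and 137 in Gbp2b. Gbp3 held a second match that overlapped the first, and the window at its other start held none. Among all 32851 windows of the table, 1131 (3.44%) held the core, and among 27025 genes 1079 (3.99%) did so in at least 1 window. The same 10 letters, TTTCACTTTC, stood in Gbp2 and Gbp2b, and TTTCAGTTTC in Gbp3 and Gbp7. The palindrome TTCNNNGAA, known as the interferon-γ-activated site, occurred in 2 of the 5 genes, Gbp5 and Gbp7, with 2 matches in each, against 9.55% of all genes in the table. The E-box CACGTG, the hexamer that upstream stimulatory factors are known to bind, occurred in none of the 6 member windows and in 7.15% of all windows. A match is a run of letters and not a measured site, and its lack says only that these letters are not in these windows.

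Library depth was even, from 34644862 to 35806402 counts. Usf3, the targeted gene, had 2532, 2360 and 2348 counts in KO-labelled replicates 1, 2 and 3, against 2499, 2527 and 2593 in WT-labelled replicates, and did not pass the test (log2 fold change -0.076 ± 0.043 SE, edgeR adjusted p = 0.261). Which exons the floxed alleles remove is not stated, and a total for all exons together leaves the labels unchecked. Levels are given as CPM, the count scaled to the library's total after adjustment by its TMM factor (a scaling by the trimmed mean of log ratios between libraries). T cell markers were abundant, with means over all libraries of 275 CPM for Cd3d, 337 for Cd3e, 361 for Cd3g and 1489 for Thy1, and Cd4 stayed at or under 0.739 CPM. Of 11 T cell markers tested, 4 were lower and 1 was higher, beside 10.1% and 7.23% of all tested genes. The summed level of these markers was 3643 to 3772 CPM in KO-labelled and 3812 to 3842 CPM in WT-labelled libraries. The higher marker was Cd8a, at 86.9 ± 2.41 CPM in KO-labelled and 66.0 ± 0.527 CPM in WT-labelled libraries (SD, n = 3 each; log2 fold change 0.40, edgeR adjusted p = 7.51e-08). The call of Cd3e as lower, at -0.076, was lost by total-count and upper-quartile scaling, with the replicate block, on both FPKM scales and without any one library other than KO-labelled replicate 3. The part of these markers in the Gbp result was not tested, and the γδ receptor chain genes were not analysed here.

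All 9 Gbp genes with measurable counts were lower in KO-labelled than in WT-labelled cells, by 12.1% for Gbp5 to 54.7% for Gbp10. These 9 passed the test, beside 10.1% of all tested genes that were lower at the same threshold (edgeR quasi-likelihood, Benjamini-Hochberg adjusted p under 0.05), and 0 were higher, beside 7.23% of all tested genes; 17.3% of tested genes passed in either direction. In the same 9 genes the KO-labelled libraries lay wholly below the WT-labelled ones in CPM, beside 16.7% of all tested genes, and 15.5% of tested genes lay wholly above. The median log2 fold change was -0.34 over the 9 and 0.0014 over all tested genes. In a bulk sample, fewer cells of a type that expresses a gene and less RNA per cell cannot be told apart.

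Gbp2b, known for its role at the Toxoplasma vacuole, was the member without measurable counts. It had 0, 0 and 0 counts in KO-labelled replicates 1, 2 and 3, against 0, 1 and 1 in WT-labelled replicates. With 3 counts as the floor of a library, 0.0838 to 0.0866 CPM, both groups were under it and no fold is given. The ISRE core printed above for Gbp2b was thus present in a gene that was not detectable at this depth in these cells, as well as in Gbp2, the neighbouring gene, which had the highest WT level per length of the family.

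**Figure D1:**
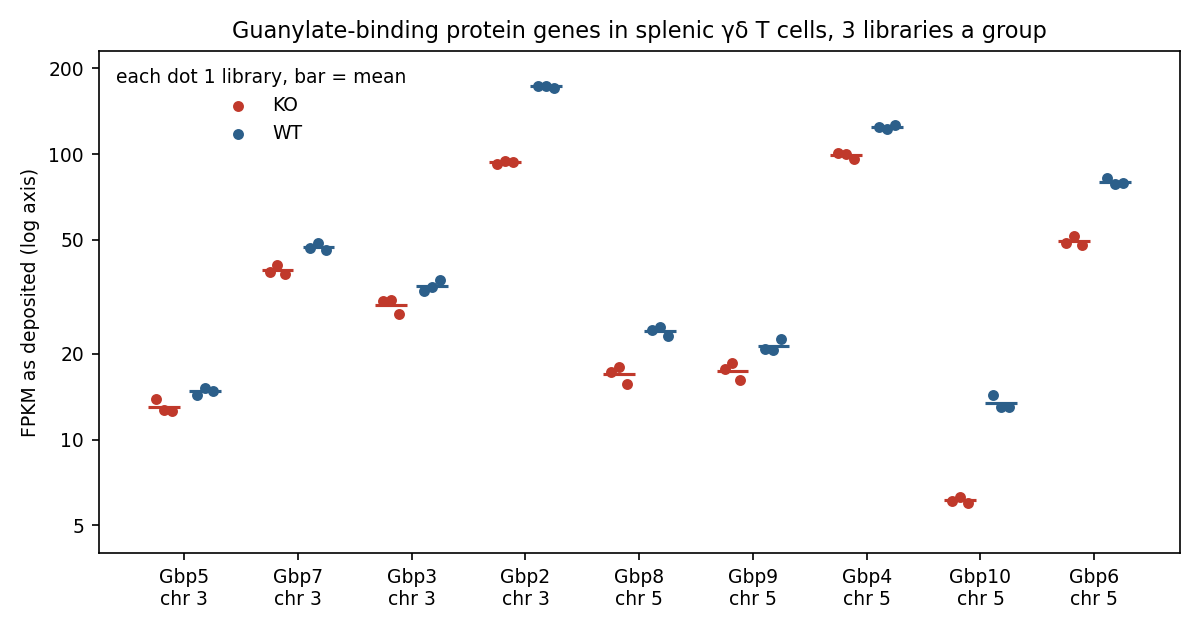
Deposited FPKM (log axis) of the 9 measurable Gbp genes in 3 KO-labelled (red, left) and 3 WT-labelled (blue, right) libraries, with 1 dot per library and a bar at the mean, in gene order along chromosomes 3 and 5. Every gene's red dots lie below its blue dots, with the widest gap in Gbp10 (6.13 against 13.4 FPKM) and the narrowest in Gbp5 (13.0 against 14.7 FPKM).

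Among the chromosome 3 members, Gbp2, a prenylated GTPase that coats Toxoplasma vacuoles and is needed to control the parasite in mice, changed most. Its counts were 7938, 8304 and 7977 in KO-labelled replicates 1, 2 and 3, against 15145, 14871 and 14815 in WT-labelled replicates. The groups were far apart, and the spread within each was small, at 229 ± 3.05 CPM in KO-labelled and 425 ± 3.11 CPM in WT-labelled libraries (SD, n = 3 each). The log2 fold change was -0.89 ± 0.025 (SE; edgeR adjusted p = 2.63e-17), a level 46.1% lower with a 95% interval from 44.1% to 48.0%.

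Gbp7, which in mice has been linked to assembly of the phagosome oxidase, had 7617, 8225 and 7414 counts in KO-labelled replicates, against 9348, 9590 and 9141 in WT-labelled replicates. The KO-labelled libraries were all lower, with a gap smaller than that of Gbp2 (17.4% lower, 95% interval 13.6% to 21.03%). Gbp3, which also gathers at Toxoplasma vacuoles, had 3399, 3508 and 3022 counts in KO-labelled replicates and 3755, 3807 and 4065 in WT-labelled replicates. Its fall was 14.8% (95% interval 9.18% to 20.1%). Gbp5, known to promote assembly of the Nlrp3 inflammasome, had 1470, 1370 and 1312 counts in KO-labelled replicates, against 1537, 1600 and 1577 in WT-labelled replicates.

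KO-labelled replicate 1 came near the WT-labelled range for Gbp5, at 41.8 CPM against a lowest WT-labelled value of 43.2 CPM. The Gbp5 log2 fold change was -0.19 ± 0.053 (SE; edgeR adjusted p = 0.0152), the smallest of the family. Its call was lost without KO-labelled replicate 2, WT-labelled replicate 2 or WT-labelled replicate 3 (edgeR adjusted p = 0.0508, 0.0883 and 0.0606), with log2 fold changes of -0.17, -0.16 and -0.18. The log2 fold changes of Gbp7 and Gbp3 were -0.28 ± 0.031 and -0.23 ± 0.045 (SE), with edgeR adjusted p of 6.67e-07 and 0.000574.

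On chromosome 5, Gbp4 had the most counts of any member. It encodes a protein known in mice to bind the interferon regulatory factor Irf7 and damp its activation. Its counts were 18510, 18820 and 17371 in KO-labelled replicates 1, 2 and 3, against 23253, 22363 and 23333 in WT-labelled replicates. The groups did not overlap and the level was 20.8% lower (95% interval 17.98% to 23.6%; log2 fold change -0.34 ± 0.025 SE, edgeR adjusted p = 4.84e-10). Gbp9, whose product is also found at Toxoplasma vacuoles, had 3476, 3728 and 3154 counts in KO-labelled replicates and 4164, 4059 and 4465 in WT-labelled replicates, a level 18.6% lower. Gbp8 had 2651, 2835 and 2389 counts in KO-labelled replicates, against 3786, 3818 and 3597 in WT-labelled replicates, a level 29.9% lower. Gbp8 and Gbp9 are neighbours, and their 95% intervals did not overlap, at 25.1% to 34.3% for Gbp8 and 13.1% to 23.7% for Gbp9.

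Gbp6 and Gbp10, at the other end of the chromosome 5 cluster, fell more. Gbp6, found with Gbp2 and Gbp3 at Toxoplasma vacuoles, had 8257, 8966 and 8092 counts in KO-labelled replicates, against 14189, 13254 and 13595 in WT-labelled replicates. Gbp10 had 754, 794 and 731 counts in KO-labelled replicates, against 1793, 1602 and 1627 in WT-labelled replicates. Gbp10 had the largest fall of the measurable members. The log2 fold changes were -0.70 ± 0.029 (SE) for Gbp6 and -1.14 ± 0.057 for Gbp10, with edgeR adjusted p of 3.68e-14 and 7.23e-13. Only 0.710% of all tested genes had a log2 fold change as low as that of Gbp10 and 1.41% as low as that of Gbp2, whereas 17.0% were as low as Gbp5.

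Similar copies may share reads, and the sources used here do not say how the authors' counting placed them. In GENCODE M21 transcripts (build GRCm38), 70.9% of the 100-base stretches of Gbp10 and 82.9% of those of Gbp6 also occurred in a transcript of another gene. Between the pair itself, 56.1% of the stretches of Gbp10 occurred in Gbp6 and 44.2% of those of Gbp6 in Gbp10. A further gene model, Gm43302, spans both genes, shares 70.0% of the stretches of Gbp10 and 82.9% of those of Gbp6, and overlaps 46.3% and 29.0% of their exonic bases. Whether reads in its exons were counted for Gbp6, for Gbp10 or for neither is unknown, so the levels of both genes and the split of reads between them are uncertain. Summed, the pair stood at 261 ± 10.2 CPM in KO-labelled and 436 ± 11.4 CPM in WT-labelled libraries (SD, n = 3 each), a log2 ratio of -0.74 that is close to that of Gbp6, the larger of both, and lies above the -1.14 of Gbp10 alone.

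Gbp2, Gbp2b and Gbp5 shared no 100-base stretch with a transcript of any other gene. Gbp3, Gbp4, Gbp8 and Gbp9 shared 0.929%, 2.88%, 3.81% and 2.01%. Gbp7 shared 10.2%, nearly all of it with the processed pseudogene model Gm43802 that lies within its own exons. With 50-base stretches the shares were 2.07% for Gbp2 and 21.2% for Gbp8, and with 150-base stretches 0% for both. Of Gbp2, Gbp6 and Gbp10, the 3 members with the largest changes, Gbp2 was the one without shared 100-base stretches. Gbp4, Gbp8 and Gbp9 also overlap one another in at most 61 exonic bases.

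**Figure D2:**
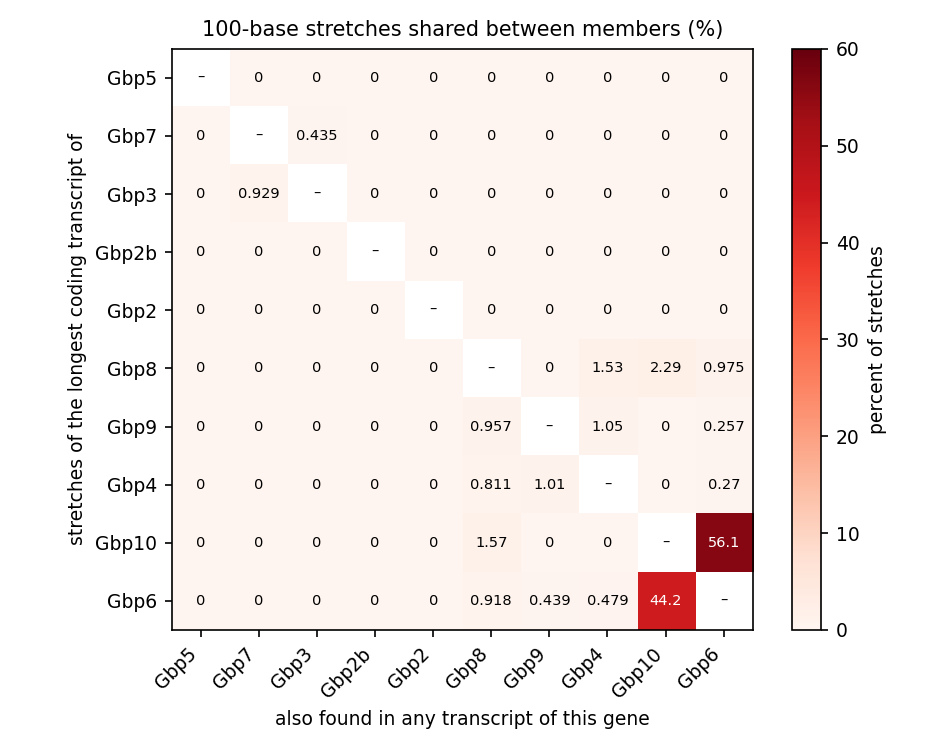
Percent of the 100-base stretches in each gene's longest protein-coding transcript (rows) that also occur in a transcript of another member (columns), from GENCODE M21 on GRCm38, with members in gene order. Gbp6 and Gbp10 share 44.2% and 56.1% of their stretches, and no other pair exceeds 2.29%.

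Summed over the 10 rows, Gbp counts made up 0.154% of all counts in KO-labelled and 0.215% in WT-labelled libraries. The sum was 1538, 1579 and 1480 CPM in KO-labelled replicates 1, 2 and 3, against 2162, 2154 and 2167 CPM in WT-labelled replicates. The KO-labelled libraries were lower and more spread, at 1532 ± 49.8 CPM, against 2161 ± 6.50 CPM in WT-labelled libraries (SD, n = 3 each), a sum 29.1% lower. The sum over the chromosome 3 members was 31.2% lower and that over the chromosome 5 members 27.8% lower. Without Gbp2 the remaining members together were 24.97% lower. Within the KO-labelled group, replicate 2 was the highest library in 7 of the 9 measurable members and replicate 3 the lowest in 8, whereas no WT-labelled library was lowest in more than 4. How often each library was highest or lowest over all tested genes was not computed, so these counts have nothing to be set against.

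The members did not fall to the same extent, so the order of levels differed between groups. Per length, in the deposited FPKM, Gbp4 was highest in KO-labelled cells at 99.1 ± 2.91 and Gbp2 next at 93.6 ± 1.005, whereas in WT-labelled cells Gbp2 was highest at 172 ± 1.64 and Gbp4 next at 124 ± 1.83 (SD, n = 3 each). In both groups these were followed by Gbp6, Gbp7 and Gbp3. Gbp9 and Gbp8 came next, and their levels overlapped in KO-labelled libraries (17.5 and 17.0 FPKM) and did not in WT-labelled libraries, where Gbp8 was the higher (21.3 FPKM for Gbp9 and 24.1 FPKM for Gbp8). Gbp5 and Gbp10 were lowest in both, and every neighbouring pair other than Gbp9 and Gbp8 in KO-labelled libraries was separate in FPKM. In WT-labelled libraries Gbp5 and Gbp10 were barely so, with a lowest value of 14.29 FPKM for Gbp5 and a highest of 14.27 FPKM for Gbp10.

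The order rests on the gene lengths used. The deposited values use 4853 bases for Gbp6 and 2455 for Gbp2, while the longest protein-coding transcripts have 2604 and 2516 bases. With transcript lengths, a scale added after the data were seen, Gbp6 stood at 91.9 CPM per kilobase in KO-labelled and 149 in WT-labelled libraries. On that scale Gbp4 remained above Gbp2 in KO-labelled libraries, at 114 against 91.0, and below it in WT-labelled libraries, at 144 against 169. In WT-labelled libraries Gbp8 then stood above Gbp3, at 43.2 against 41.1, and their ranges overlapped, as did those of Gbp5 and Gbp10. The ratio of a member to Gbp2 within a library does not depend on length in its change between groups.

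Relative to Gbp2, 7 members were higher in every KO-labelled library than in any WT-labelled one, and Gbp10 was lower in every KO-labelled library. Only 1.41% of all tested genes had a log2 fold change as low as that of Gbp2. Most genes would thus stand higher relative to it, and their share without overlap was not computed. The count of 7 says only that these members fell less than Gbp2. The log2 ratio of Gbp4 to Gbp2, on the CPM scale, was 1.22, 1.18 and 1.12 in KO-labelled replicates, against 0.62, 0.59 and 0.66 in WT-labelled replicates. The difference between the groups in this ratio was 0.55 for Gbp4, 0.70 for Gbp5, 0.66 for Gbp3, 0.62 for Gbp7, 0.59 for Gbp9, 0.38 for Gbp8, 0.19 for Gbp6 and -0.25 for Gbp10. Each of these 8 ratios gave p = 0.1 in a two-sided exact permutation test over libraries, and 0.1 after Benjamini-Hochberg adjustment over the 8. With 3 libraries against 3, no p below 0.1 is possible. As a share of the summed FPKM, Gbp2 held 25.7% ± 0.733 in KO-labelled and 32.4% ± 0.287 in WT-labelled libraries, and Gbp4 27.2% ± 0.367 and 23.4% ± 0.336 (SD, n = 3 each).

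**Figure D3:**
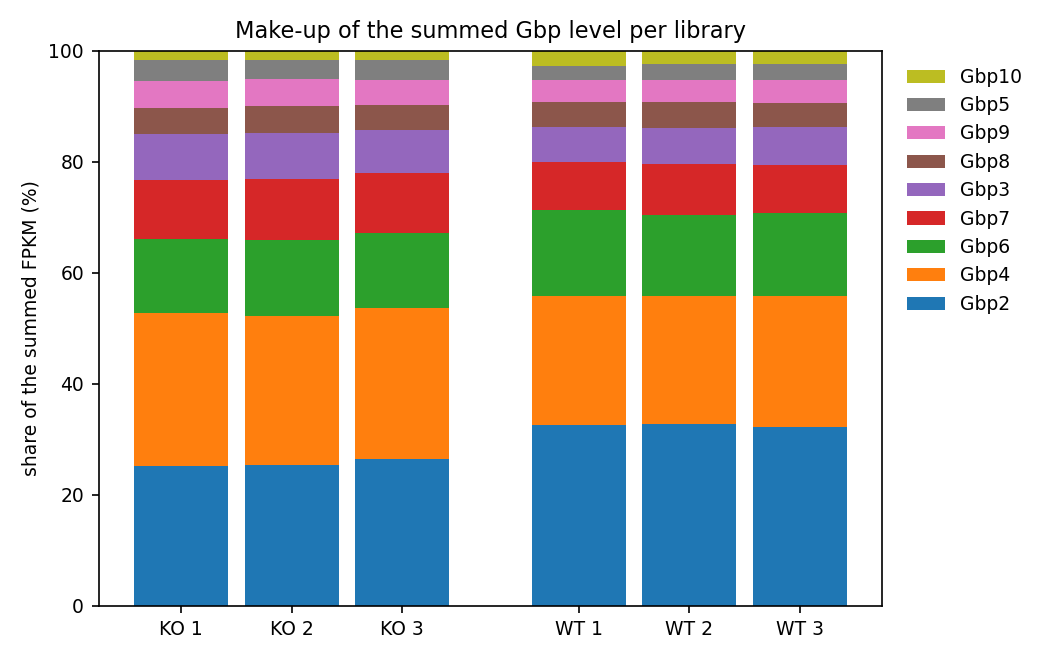
Share of each measurable Gbp gene in the summed FPKM of a library, in percent, with 1 stacked bar per library, KO-labelled at left and WT-labelled at right. The Gbp2 share (bottom) is 25.2% to 26.5% in KO-labelled bars and 32.1% to 32.7% in WT-labelled bars, and the Gbp4 share above it is wider in KO-labelled bars.

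Of 13 tested genes in a list of interferon receptors and signalling genes, 10 were lower, 1 was higher and 2 did not pass. The list also holds the ligand gene Ifng and Socs1, an inhibitor of this signalling. Socs1 was among the 10 lower (log2 fold change -0.39). Over all tested genes, 10.1% were lower and 7.23% higher. Ifngr1, the ligand-binding chain of the interferon-γ receptor, stood at 369, 373 and 363 CPM in KO-labelled replicates 1, 2 and 3, against 561, 552 and 563 CPM in WT-labelled replicates (log2 fold change -0.60 ± 0.023 SE, edgeR adjusted p = 8.97e-15). Irf1, a factor that acts on Gbp promoters, was lower by a log2 fold change of -0.39, and Irf9, a DNA-binding factor of type I interferon signalling, by -0.33. The interferon-γ gene itself, Ifng, was the member that was higher, at 83.2 ± 2.58 CPM in KO-labelled and 69.8 ± 1.11 CPM in WT-labelled cells (SD, n = 3 each; log2 fold change 0.25). Ifng and Socs1, and Jak1 and Tyk2, which did not pass at 0.052 and -0.0099, were chosen for mention after their values were seen. The median over the list was -0.26.

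Of the other interferon-induced GTPases, 9 of 9 tested were lower, beside 10.1% of all tested genes, with a median log2 fold change of -0.54. Iigp1, an effector that breaks parasite vacuoles open, changed by -0.84, Gm12250 by -0.65, and the membrane-guarding regulators Igtp and Irgm1 by -0.54 and -0.43. Interferon-γ-induced genes outside the GTPases were lower in 12 of 14 tested and higher in 0, beside 10.1% and 7.23% of all tested genes. Their median of -0.19 was smaller in size. Among them Cd274, the checkpoint ligand PD-L1, changed by -0.64, Parp14 by -0.40, the class I transactivator gene Nlrc5 by -0.38 and the peptide transporter gene Tap1 by -0.27.

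**Figure D4:**
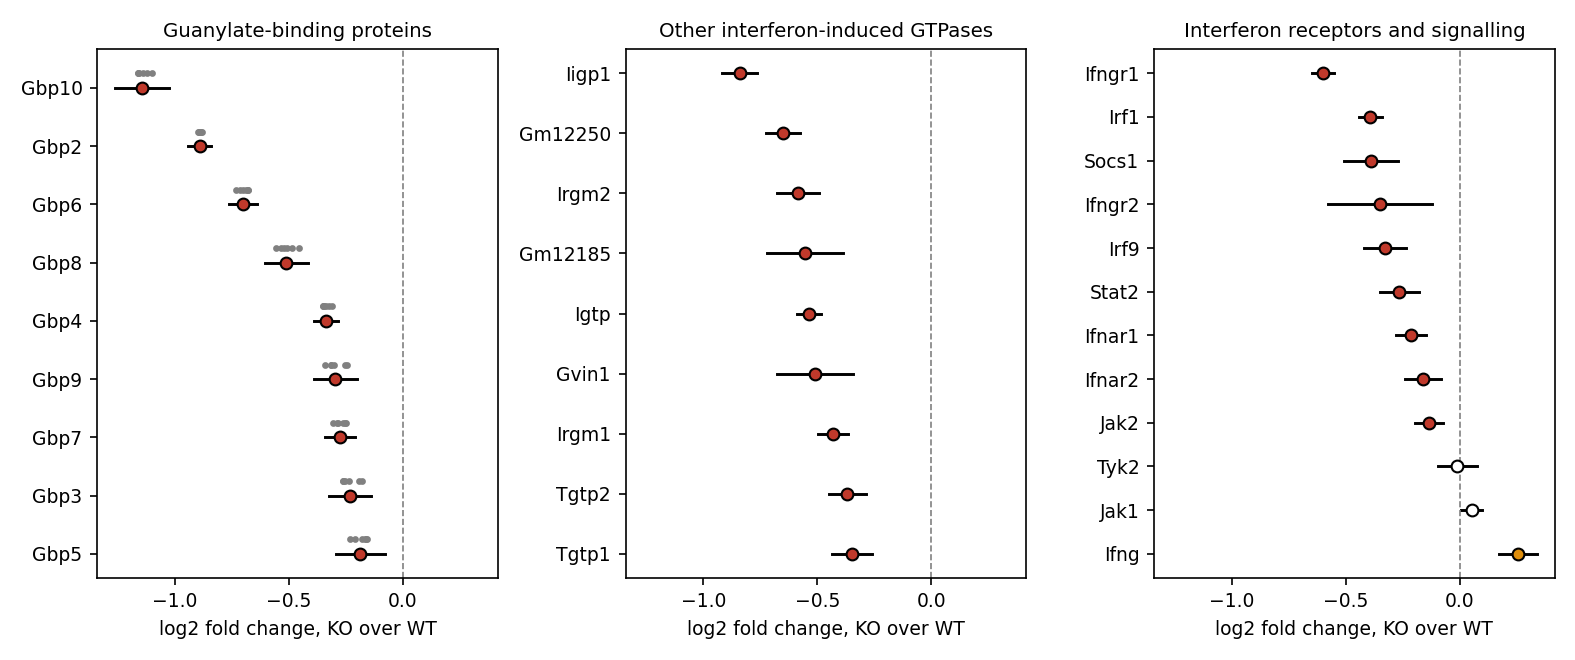
Log2 fold change, KO-labelled over WT-labelled, with 95% intervals (lines) from the edgeR fit, for the 9 measurable Gbp genes, 9 other interferon-induced GTPases and 12 of the 13 interferon receptor and signalling genes. Red points passed as lower, orange as higher and white did not pass, and small grey points give each Gbp value with 1 library left out. Gbp values run from -1.14 to -0.19, and Ifng is the point that passed as higher at 0.25.

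Genes that work with the Gbp proteins were examined next. The 22 tested genes were for autophagy conjugation, prenylation and inflammasomes, with other partners that include Pim1. Of the 22, 5 were lower and 0 higher, beside 10.1% and 7.23% of all tested genes. The median log2 fold change was -0.032. Pim1, a kinase whose human protein is known to restrain GBP1, changed by -0.22, Casp1, the inflammasome protease, by -0.20, and the inflammasome adaptor gene Pycard by -0.15, a call that was lost on the FPKM scales and without KO-labelled replicate 1 or 2 or WT-labelled replicate 1 or 2. Nlrp3, the sensor that Gbp5 is known to assist, had 32, 42 and 51 counts in KO-labelled replicates 1, 2 and 3, against 116, 149 and 94 in WT-labelled replicates (log2 fold change -1.52 ± 0.253 SE, edgeR adjusted p = 0.000109). The count of 5 was 2 on both FPKM scales, where Nlrp3 did not enter the test. The count was 3 without KO-labelled replicate 1 or without WT-labelled replicate 1. With DESeq2, limma-voom, total-count or upper-quartile scaling or the replicate block, the count was 4. The atlastin genes Atl2 and Atl3, whose proteins are related GTPases that fuse endoplasmic reticulum membranes and are not known as interferon-induced, did not pass, at -0.059 and -0.052.

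The 5 other genes whose levels over the 6 libraries were most like the summed Gbp level, among 8429 genes of at least 10 CPM, were Slamf7, Cd69, Emilin2, Ogfrl1 and P2ry14. Likeness was the root mean square distance between log2 profiles relative to the WT-labelled mean, and it was 0.026, 0.027, 0.027, 0.032 and 0.034. Slamf7 encodes a lymphocyte receptor, Cd69 an early activation antigen, Emilin2 a matrix glycoprotein and P2ry14 a receptor for UDP sugars. Cd69 stood at 250, 256 and 245 CPM in KO-labelled replicates 1, 2 and 3, against 341, 344 and 357 CPM in WT-labelled replicates. Its log2 fold change was -0.47, beside a log2 ratio of -0.50 for the Gbp sum. This is a description over 6 libraries that share depth and group, with no test.

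Other spleen cells also express Gbp genes. Of the markers of these cells that passed the main test, Cd68, Batf3 and Ncr1 were lower and only Eomes was higher. Over 7 monocyte and macrophage markers with a row, the summed level was 6.42 to 7.57 CPM in KO-labelled and 8.01 to 10.9 CPM in WT-labelled libraries, with 1 of 2 tested lower. Nearly all of it was Cd68, the marker called lower, and its call was lost without WT-labelled replicate 2 or 3 (edgeR adjusted p = 0.130 and 0.0733). Csf1r, Lyz2, Adgre1 and Cd14 stayed at or under 0.402 CPM in every library. Csf1r had 0 counts in all KO-labelled libraries and 1, 0 and 4 counts in WT-labelled replicates 1, 2 and 3. Over 4 dendritic cell markers the sum was 5.81 to 6.04 CPM in KO-labelled and 8.53 to 9.24 CPM in WT-labelled libraries, with 1 of 3 tested lower, Batf3, which activated lymphocytes also express. Batf3 made up most of this sum, at 4.24 CPM in KO-labelled and 8.06 CPM in WT-labelled libraries. The other dendritic markers tested had log2 fold changes above 0 and did not pass, at 1.42 for Xcr1 (edgeR adjusted p = 0.0834) and 0.40 for Zbtb46 (0.555). Xcr1 passed as higher with the replicate block, with no filter and without KO-labelled replicate 2 (edgeR adjusted p = 0.0449, 0.0311 and 0.0216). Flt3 stayed at or under 0.223 CPM.

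B cell markers summed to 5.35 to 7.22 CPM in KO-labelled and 6.06 to 6.78 CPM in WT-labelled libraries over 7 genes, with 0 of 1 tested called and Ms4a1 and Cd79a at or under 0.374 CPM. Over 6 NK cell genes the sum was 580 to 593 CPM in KO-labelled and 393 to 397 CPM in WT-labelled libraries. Most of this sum was Eomes, which γδ T cells also express, at 500 CPM in KO-labelled and 307 CPM in WT-labelled libraries. Of 4 tested, 1 was higher, Eomes, and 1 was lower, Ncr1, which stayed at or under 2.33 CPM. Klrb1c stood at 76.3 CPM in KO-labelled and 73.7 CPM in WT-labelled libraries, and Klre1 at 10.8 and 12.5 CPM. Klrb1c and Klre1 did not pass, with log2 fold changes of 0.049 and -0.22. The Ncr1 call was lost with the replicate block and without KO-labelled replicate 1 or WT-labelled replicate 1 or 2 (edgeR adjusted p = 0.0789, 0.176, 0.222 and 0.106). Neutrophil and erythroid markers summed to at most 0.144 and 0.287 CPM in KO-labelled and 0.142 and 0.141 CPM in WT-labelled libraries, with 0 genes tested. The part of other cells in the Gbp result was not tested.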

How the data were processed

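Per the labels' protocols, TRIzol RNA went into VAHTS Universal V6 libraries. The submitters' processing notes name fastp, HISAT2, HTSeq and the build GRCm39. The sources used here give no versions, roles, annotation or strand use. The authors deposited unnormalized whole-number counts of 19390 gene symbols in 6 libraries. In their deposited FPKM, each gene's value is its count over the column total and 1 fixed length, in all 19390 genes (tolerance 0.01 bp).

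The test was edgeR 4.0.16 quasi-likelihood (R 4.3.3; filterByExpr, TMM, group as the one term), with Benjamini-Hochberg adjustment over 12810 genes at a threshold of 0.05. The filter left out 0.0366% of counts. CPM use TMM-scaled library sizes, and standard errors are the log2 fold change's size divided by √F. The spread between libraries beyond counting noise, which edgeR names the biological coefficient of variation, was 4.16%. As separate animals are not stated, it may be technical. The fit was tested on simulated data that gave every gene the same spread between libraries. That check cannot tell whether the spread in the real libraries is technical. Alternatives used DESeq2 1.42.0, limma 3.58.1, other scalings and filters, log2 FPKM with pseudocounts of 0.1 and 1, a replicate block and each library left out.

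The members and lists were chosen with earlier results of these data known. The text names all 10 members, Usf3, up to 4 called genes by smallest p in each pathway list, and the 5 genes nearest the summed Gbp profile; markers are given by list, and any other gene was picked with its values known. The coordinates and sequences are from GRCm38 and are not those of the counted build. Some genes of the lists count in the lists' totals and are not reported here by name.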

Additional observations from a re-analysis of the deposited data

How the results depend on the processing

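The 9 lower Gbp genes kept their call under DESeq2, limma-voom, 3 other scalings (total count, RLE, upper quartile), no filter, at least 1 CPM in 3 libraries and both FPKM scales. Leaving out 1 library gave 8 to 9, and the gene lost was Gbp5. Log2 fold changes over 16 alternatives ran from -0.90 to -0.87 for Gbp2, from -1.16 to -1.02 for Gbp10 and from -0.23 to -0.16 for Gbp5. Genes changed in all were 2219, and 1660 to 2256 with 1 library left out. Of the 2219, 58.3% were lower, against 52.7% by upper-quartile scaling. The summed Gbp level, -0.50 in log2 CPM, was -0.54 as summed FPKM, and the chromosome 3 sum, -0.54, was -0.62, since FPKM gives the shorter Gbp2 more weight. The count of partner genes lower, 5, was 2 on both FPKM scales, where Nlrp3 was not tested, and 3 to 4 with 1 library left out. Under DESeq2, limma-voom, total-count or upper-quartile scaling and the replicate block, this count was 4. For interferon-γ-induced genes outside the GTPases, the 12 lower became 11 in all alternatives but no filter and without KO-labelled replicate 1 or WT-labelled replicate 3. For receptor and signalling genes, the 10 lower became 9 under DESeq2, with the replicate block and without KO-labelled replicate 1 or 3 or WT-labelled replicate 1 or 2. With transcript lengths, the log2 level of Gbp6 over Gbp2 in KO-labelled libraries was 0.014 in place of -0.92.

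Same-numbered libraries did not deviate together (correlations of 0.048, -0.044 and -0.072 for replicates 1, 2 and 3), and not every library correlated best with its own number, so the numbers were not taken as pairs. With the replicate block, 9 Gbp genes were lower and 1969 genes changed in all. Gbp2b had 2 counts in all libraries together, too few for a fold, and the reason for so few was not tested.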
